A study of Mus musculus with 18 samples.

Results

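The genes described here are the cannabinoid receptor Cnr1 and 6 enzymes that make or break down its lipid ligands, Dagla, Daglb, Mgll, Abhd6, Napepld and Faah. They were measured in the lateral septum (LS) of female outbred hsd:ICR mice. The members were chosen by gene symbol. A probeset, the unit of measurement on the array, was taken when the platform annotation gave it that gene and no other, and the brightest one per gene was to be used. All 7 of the 7 genes were found, each with 1 such probeset, out of 35557 probesets on the array, of which 21789 name exactly 1 gene.

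The study held 3 groups of 6 mice, age-matched at about 70 days, and the LS of each mouse was hybridized to its own array (Affymetrix Mouse Gene 1.0 ST). Virgin females had not been mated and were used only when in diestrus. Lactating maternal females nursed litters standardized to 11 pups and were dissected on postpartum Day 7. Pups removed females gave birth and had the same litter size, but lost their pups on Day 2 and were dissected on Day 7 as well. All of them were in diestrus, and the estrous state of maternal females is not given in the methods. LS was taken by micropunch from both sides of frozen brain sections, so each value is a mean over all the cells in the punch. A lower value can stem from fewer cells of a type or from less RNA per cell, and these cannot be told apart. Maternal and virgin mice differ in mating, pregnancy, birth and lactation together. Maternal and pups removed mice differ in the continued presence of pups, and with it in nursing after Day 2.

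Endocannabinoids are lipids released by a neuron that act back on the axon terminals contacting it. In this retrograde signaling, 2-arachidonoylglycerol (2-AG) is made in the postsynaptic membrane by diacylglycerol lipase and binds the CB1 receptor, encoded by Cnr1, which is coupled to Gi/o proteins and lowers transmitter release. Anandamide, the other well known ligand, can be made by N-acyl phosphatidylethanolamine phospholipase D and is broken down by fatty acid amide hydrolase. In the forebrain, CB1 is abundant on terminals of GABA neurons, including those of cholecystokinin (CCK) basket interneurons and of striatal projection neurons.

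The values are log2 signals, in which a difference of 1 is a doubling. All arrays were close to each other, with correlations between arrays of 0.9884 to 0.9947 and array medians of 7.61 to 7.70. In the linear model (limma, all 18 arrays, Benjamini-Hochberg adjustment over all probesets, called at an adjusted p under 0.25), 585 probesets were called between maternal and virgin mice, which is 1.65% of those tested. Between maternal and pups removed mice 11 were called, or 0.0309%, and between pups removed and virgin mice 74, or 0.208%. The count between maternal and virgin mice fell to 10 without maternal replicate 5 and was 1639 without virgin replicate 6. That between maternal and pups removed mice was 719 without pups removed replicate 4, and that between pups removed and virgin mice was 18 without virgin replicate 2 and 266 without virgin replicate 4. Lateral septal neuron markers were present in all groups, with a mean log2 signal over 10 measured markers of 10.366 ± 0.031, 10.401 ± 0.032 and 10.340 ± 0.070 in virgin, maternal and pups removed mice (SD, n = 6 each). None of the 10 was called. Between maternal and virgin mice 2 were higher and 1 lower at an unadjusted p under 0.05, beside 10.4% of all probesets in either direction. In mean, 8 of 10 were higher in maternal than in pups removed mice.

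None of the 7 genes passed the test in any of the 3 comparisons. Among the 21 differences, limma called 0, and 0 lay under an unadjusted p of 0.05. The shares of all probesets under that unadjusted p were 10.4%, 8.96% and 8.13% in the order given above. With only 7 genes, counts of 0 lie near these shares. The differences ran from -0.082 to 0.082 on the log2 scale with SEs of 0.038 to 0.048, and the smallest adjusted p was 0.536. The 95% intervals of all 21 differences lay between -0.174 and 0.174, or between 0.886 and 1.128 as a fold. In an exact two-sided permutation test of 6 arrays against 6, which can go no lower than p = 0.00216, the smallest unadjusted p among the 21 was 0.0649. The groups overlapped for every gene in every comparison. Of all probesets, 0.835%, 0.529% and 0.38% had groups with no overlap, so a count of 0 among 7 genes is near that share.

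**Figure D1:**
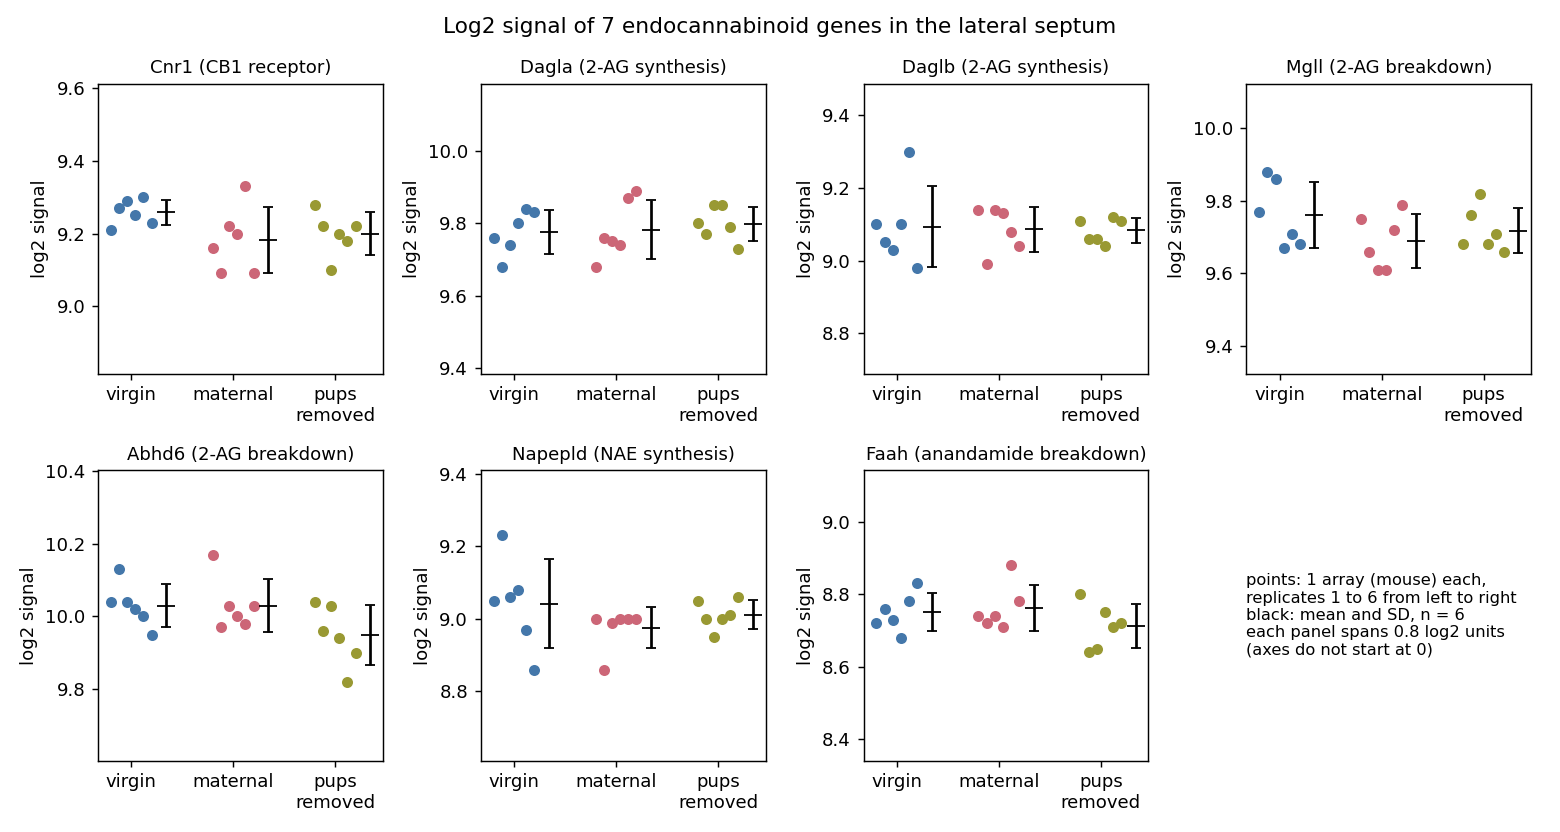
Log2 signal (vertical axis) of the 7 genes in each of the 18 arrays, by group of 6 mice (horizontal axis), with the mean and SD; panels are ordered by role, and NAE stands for N-acylethanolamine, the lipid class that holds anandamide. The groups overlap in every panel, and the lowest group mean for Cnr1 is 9.182 in maternal mice against 9.258 in virgin mice.

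In limma the receptor had the smallest unadjusted p of the 21 differences, 0.0782. The 2 largest in size were those of Abhd6, each with an unadjusted limma p of 0.0803. Cnr1, which encodes CB1, had log2 signals of 9.21, 9.26 and 9.30 (lowest, median and highest) in virgin mice. In maternal mice the corresponding values were 9.09, 9.18 and 9.33. In pups removed mice they were 9.10, 9.21 and 9.28. The virgin arrays were tightly grouped, with an SD of 0.035, and the lowest as well as the highest of all 18 values came from maternal mice, where the SD was 0.091. The maternal mean was lower than the virgin mean by a log2 difference of -0.077 (SE 0.041, 95% interval -0.163 to 0.010, limma adjusted p = 0.536), with 5 of 6 maternal arrays below the virgin mean. The pups removed mean differed from virgin by -0.058 (interval -0.145 to 0.028, limma adjusted p = 0.764), also with 5 of 6 arrays below. Between maternal and pups removed mice the difference was -0.018 (limma adjusted p = 0.927). The exact permutation test gave an unadjusted p of 0.0952 for maternal and 0.0649 for pups removed mice against virgin.

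The 2 diacylglycerol lipases, which release 2-AG from diacylglycerol, had nearly the same mean in every group. Dagla encodes the form that supplies most of the 2-AG for retrograde signaling in the adult brain. Its log2 signal had a lowest, median and highest value of 9.68, 9.775 and 9.84 in virgin mice. The same values were 9.68, 9.755 and 9.89 in maternal mice and 9.73, 9.795 and 9.85 in pups removed mice. The groups covered nearly the same range. The maternal minus virgin difference was 0.007 (SE 0.040, interval -0.078 to 0.092, limma adjusted p = 0.971), and the other differences were -0.017 for maternal and 0.023 for pups removed, the former against pups removed and the latter against virgin mice.

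Daglb encodes the second lipase, which is prominent in microglia and other immune cells. Its log2 signal was 8.98 at the lowest, 9.075 at the median and 9.30 at the highest in virgin mice. In maternal mice it was 8.99, 9.105 and 9.14, and in pups removed mice 9.04, 9.085 and 9.12. The highest virgin value, from replicate 5, lay above every array of the other groups, and the pups removed arrays were the most tightly grouped. The maternal minus virgin difference was -0.007 (SE 0.046, interval -0.103 to 0.090, limma adjusted p = 0.975), and the other 2 differences were 0.003 and -0.010.

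Of the enzymes that break down 2-AG, Mgll was lower in mean in both postpartum groups and Abhd6 in pups removed mice alone, none of them past the test. Mgll encodes monoacylglycerol lipase, the main 2-AG hydrolase of the brain, which sits largely in presynaptic terminals. Its log2 signal had a lowest, median and highest value of 9.67, 9.74 and 9.88 in virgin mice. The values were 9.61, 9.69 and 9.79 in maternal mice and 9.66, 9.695 and 9.82 in pups removed mice. Each group spanned much of the range of the others, with the highest values in virgin replicates 2 and 3. The maternal minus virgin difference was -0.072 (SE 0.046, interval -0.169 to 0.025, limma adjusted p = 0.613), with 5 of 6 maternal arrays below the virgin mean. The pups removed minus virgin difference was -0.043 (limma adjusted p = 0.866), again with 5 of 6 arrays below.

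Abhd6 encodes a 2-AG hydrolase found mainly on the postsynaptic side. Its log2 signal was 9.95, 10.03 and 10.13 (lowest, median and highest) in virgin mice. It was 9.97, 10.015 and 10.17 in maternal mice and 9.82, 9.95 and 10.04 in pups removed mice. The 3 lowest of the 18 values came from pups removed mice, while the virgin and maternal means were equal at 10.03. Both the maternal minus pups removed difference, 0.082 (SE 0.044, interval -0.011 to 0.174, limma adjusted p = 0.613), and the pups removed minus virgin difference, -0.082 (interval -0.174 to 0.011, limma adjusted p = 0.683), had intervals that held 0. All 6 maternal arrays were above the pups removed mean. The exact permutation test gave unadjusted p values of 0.108 and 0.0931 for these comparisons.

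The genes of anandamide synthesis and breakdown showed no called difference either. Napepld encodes the phospholipase D that makes anandamide and related N-acylethanolamines. Its log2 signal had a lowest, median and highest value of 8.86, 9.055 and 9.23 in virgin mice. The values were 8.86, 9.0 and 9.0 in maternal mice and 8.95, 9.005 and 9.06 in pups removed mice. Virgin arrays had the widest spread of any gene and group here, an SD of 0.123, and 4 of the 6 maternal arrays read exactly 9.0 in a table rounded to 2 decimals. The maternal minus virgin difference was -0.067 (SE 0.048, interval -0.168 to 0.035, limma adjusted p = 0.662), with 6 of 6 maternal arrays below the virgin mean. The differences were -0.037 between maternal and pups removed mice (limma adjusted p = 0.859) and -0.030 between pups removed and virgin mice (limma adjusted p = 0.920).

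Faah encodes the hydrolase that ends anandamide signaling. Its log2 signal was 8.68, 8.745 and 8.83 (lowest, median and highest) in virgin mice. It was 8.71, 8.74 and 8.88 in maternal mice and 8.64, 8.715 and 8.80 in pups removed mice. The virgin and maternal medians differed by less than the rounding of the table. The largest of its differences was 0.050, maternal above pups removed (SE 0.038, interval -0.030 to 0.130, limma adjusted p = 0.728), with 5 of 6 maternal arrays above the pups removed mean.

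**Figure D2:**
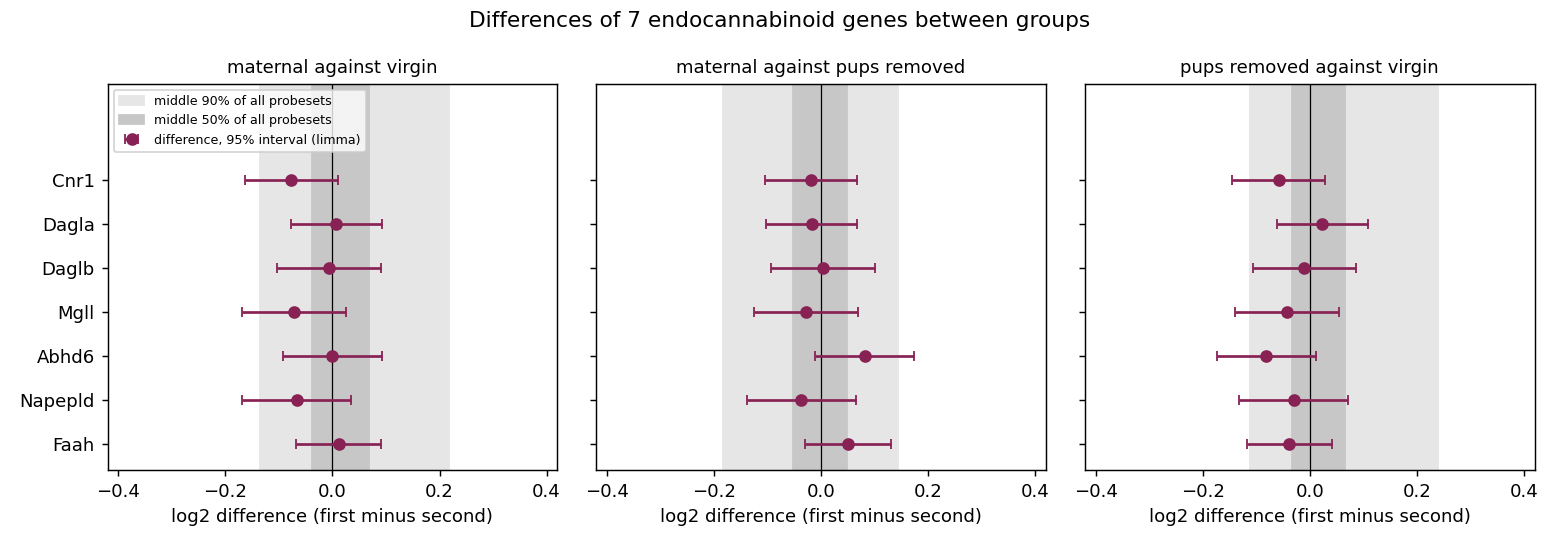
Log2 difference between group means (horizontal axis) of each of the 7 genes (vertical axis) in the 3 comparisons, with the 95% interval from limma as bars, over the range of all probesets. Every interval holds 0, and none reaches beyond -0.174 or 0.174.

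The largest of the 21 differences exceeded in size that of at most 70.6% of all probesets in the same comparison. Over all probesets, the lower and upper quartiles of the differences ran from -0.038 to 0.068 between maternal and virgin mice, from -0.053 to 0.048 between maternal and pups removed mice and from -0.033 to 0.065 between pups removed and virgin mice. The medians of these distributions were 0.012, -0.003 and 0.012.

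With the postpartum groups joined and set against virgin mice, a comparison added after the data had been seen, 0.83% of probesets were called and 9.53% had an unadjusted p under 0.05, and 0 of the 7 genes passed either threshold. Cnr1 had the largest of these differences, at -0.067 (SE 0.036, interval -0.142 to 0.007, limma adjusted p = 0.575). Of the 12 postpartum arrays, 10 were below the virgin mean and 7 below the lowest virgin array, with virgin arrays tightly grouped (SD 0.035). The share of all probesets with such counts was not taken. Mgll differed by -0.058 (limma adjusted p = 0.695) and Napepld by -0.048 (limma adjusted p = 0.771), each with 10 of 12 arrays below the virgin mean. Abhd6, Faah, Daglb and Dagla differed by -0.041, -0.013, -0.008 and 0.015.

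The genes varied little between mice of 1 group. The within-group SD ran from 0.059 for Faah to 0.081 for Napepld. For each gene it was below the median SD of probesets within 0.5 log2 units of its own mean, which ran from 0.077 to 0.089. For Faah, 12.7% of 5951 such probesets had a smaller SD, and for Mgll, at the other end, 48.3% of 4123.

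The 7 genes did not move together across mice in a way that passed the test after adjustment. Over the 18 arrays, Pearson r for the 21 pairs ran from -0.433, between Dagla and Napepld, to 0.448, between Cnr1 and Faah, with a median of 0.044, 13 positive and 8 negative. In a two-sided permutation test of r 0 pairs had an unadjusted p under 0.05, and the smallest p adjusted over the 21 pairs was 0.314. For Cnr1 and Faah, the receptor and the anandamide hydrolase, Spearman's rho was 0.428 (permutation p = 0.0772, adjusted p = 0.687), beside a permutation p of 0.0632 for r. Without the 2 arrays farthest from the Cnr1 median, r was 0.638. The highest Spearman's rho was that of Mgll and Abhd6, the 2-AG hydrolases, at 0.478 (permutation p = 0.0455, adjusted p = 0.687), with r = 0.430 (permutation p = 0.0736, adjusted p = 0.314) and an r of 0.246 without the 2 arrays farthest from the Mgll median. Within groups of 6, r of Cnr1 and Faah was 0.055, 0.646 and 0.669 in virgin, maternal and pups removed mice, and r of Mgll and Abhd6 was 0.810, 0.405 and 0.378. Virgin replicate 2 had the highest value of its group for Mgll, Abhd6 and Napepld and the lowest for Dagla.

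The genes whose signal over the 18 arrays was most like that of each member, among 21788 other probesets of a single gene, are given as a description. For Cnr1 they were Reln (r = 0.825), which encodes the secreted matrix protein reelin, S100a10 (r = 0.736), a calcium-binding family protein, and Kcng3 (r = 0.736), a potassium channel subunit. With group means removed, r was 0.804, 0.781 and 0.653, so the likeness to Cnr1 was present within groups. For Dagla they were Bcan, the matrix proteoglycan brevican, Setdb1, a histone methyltransferase, and D930016D06Rik, with r of 0.835, 0.824 and 0.815. For Daglb they were Fam47e, Fam160b2 and Myh9, a nonmuscle myosin heavy chain, with r of 0.776, 0.750 and 0.746.

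For Mgll the most similar genes were Adgrl2, an adhesion receptor of the latrophilin family, Calm2, a calmodulin gene, and Atrn, attractin, with r of 0.849, 0.831 and 0.806. For Abhd6 they were Gstm7, a glutathione transferase, Vmp1, a membrane protein of autophagy, and Caprin1, an RNA-binding protein, with r of 0.799, 0.794 and 0.792. For Napepld they were Smim7, Slc39a9, a zinc transporter, and Mlc1, a membrane protein of astrocytes, with r of 0.866, 0.851 and 0.845. For Faah they were Uty, Slc30a3, the zinc transporter of synaptic vesicles, and Il15ra, with r of 0.814, 0.778 and 0.752. Uty lies on the Y chromosome and these mice were female, and its mean log2 signal of 4.55 was near the low end of a table that ran from 2.33 to 14.72. Napepld had 124 probesets with r above 0.7, Dagla 69, Mgll 44, Abhd6 34, Daglb 14, Faah 10 and Cnr1 9. The arrays of 1 group share their condition, and no test was made on these rankings.

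Beyond the 7, other genes of the endocannabinoid system were read from a list of 21, all of them measured. This list and the later pathway lists were chosen with earlier results of these data known, so their counts are a description. Between maternal and virgin mice 0 rose, 2 fell and 19 did not pass, beside 0.832% of all probesets called higher and 0.813% called lower. The median difference was 0.008, and 0.012 over all probesets. Between maternal and pups removed mice 0 of 21 were called, with a median of 0.005 against -0.003. An unadjusted limma p under 0.05 was reached by 3, Fabp7, Fabp5 and Fabp3, beside 8.96% of all probesets. Between pups removed and virgin mice 0 passed, nor did any reach an unadjusted p under 0.05 in limma, beside 8.13% of all probesets. The 2 that fell, Fabp7 and Fabp5, both encode fatty acid binding proteins, intracellular lipid carriers that are known to carry anandamide to its sites of breakdown and also bind many other fatty acids.

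Fabp7, the brain form, is a marker of astrocytes and radial glia and was the largest change in the list. Its log2 signal ran from 12.08 to 12.72 in virgin mice, with a mean of 12.32 ± 0.23 (SD, n = 6). In maternal mice it ran from 11.60 to 12.09, with a mean of 11.84 ± 0.21. In pups removed mice it ran from 12.23 to 12.53, with a mean of 12.35 ± 0.11. The maternal and pups removed arrays did not overlap, and the maternal and virgin arrays overlapped only at 12.08 to 12.09. Fabp7 fell by 0.477 in maternal against virgin mice (SE 0.104, limma adjusted p = 0.124), a call lost without maternal replicate 5 (limma adjusted p = 0.251). The maternal minus pups removed difference was -0.513 (limma adjusted p = 0.265), which passed under several other settings, and that between pups removed and virgin mice was 0.037 (limma adjusted p = 0.959).

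Fabp5, the epidermal form, is also present in neurons and glia. It has 2 probesets of its own, and only the brighter was read. Its log2 signal ran from 9.38 to 9.81, 9.13 to 9.55 and 9.43 to 9.79 in virgin, maternal and pups removed mice, with means of 9.61 ± 0.15, 9.30 ± 0.15 and 9.59 ± 0.12 (SD, n = 6). The maternal arrays lay low but overlapped both other groups. Fabp5 fell by 0.302 in maternal against virgin mice (SE 0.078, limma adjusted p = 0.185). This call did not hold without virgin replicate 2 or 4 and without maternal replicate 2, 4, 5 or 6, with limma adjusted p between 0.289 and 0.376, nor with array weights (limma adjusted p = 0.251). The maternal minus pups removed difference was -0.283 (limma adjusted p = 0.319). That difference passed among probesets with a mean of 7 or more, among probesets of 1 gene, with array weights and without pups removed replicate 4, with limma adjusted p of 0.230, 0.198, 0.198 and 0.222. That of pups removed against virgin mice was -0.018 (limma adjusted p = 0.973).

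Marker lists of glial and ventricular cells were read beside these carriers. A list of 9 astrocyte markers had mean log2 signals of 10.408 ± 0.086, 10.413 ± 0.059 and 10.399 ± 0.038 in virgin, maternal and pups removed mice. None of the 9 was called, and they went both ways, with maternal minus pups removed differences of 0.278 for Gjb6 (limma adjusted p = 0.338), a gap junction gene, 0.175 for Aldoc (limma adjusted p = 0.287), a glycolytic enzyme, and -0.163 for Aqp4 (limma adjusted p = 0.546), a water channel. All 5 ependymal markers were lower in mean in maternal mice than in either other group, with medians of -0.310 against virgin and -0.375 against pups removed mice. None of them was called. Beside shares of 10.4% and 8.96% over all probesets, 2 of 5 and 4 of 5 of these markers had an unadjusted p under 0.05. Their mean log2 signal per array ran from 8.154 to 8.616 in virgin mice, from 7.908 to 8.508 in maternal mice and from 8.062 to 8.702 in pups removed mice. All 6 choroid plexus markers were also lower in mean in maternal mice than in either other group, with medians of -0.669 and -0.603 and 0 at an unadjusted p under 0.05. Their mean per array ran from 7.975 to 10.668, from 8.008 to 10.117 and from 7.758 to 10.588 in the same order of groups. The part of these cell types in the values of Fabp7 and Fabp5 was not tested.

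The remaining members of that list did not pass. Fabp3, another fatty acid binding protein, had a maternal minus pups removed difference of -0.105 (SE 0.048, limma adjusted p = 0.548). Its maternal minus virgin difference was -0.073 (limma adjusted p = 0.620). Fabp3 has 2 probesets of its own, and only the brighter was read. Among 6 other receptors and partners, Trpv1, a cation channel that anandamide can open, had a maternal minus virgin difference of 0.102 (SE 0.059, limma adjusted p = 0.567). Gpr55, a lipid receptor, and Cnrip1, a protein that binds the CB1 tail, had maternal minus pups removed differences of 0.068 and 0.043 (limma adjusted p = 0.752 and 0.717). Among 7 other synthesis genes, Gde1, a phosphodiesterase of a second route to anandamide, had a maternal minus virgin difference of -0.080 (SE 0.045, limma adjusted p = 0.560), which passed only without virgin replicate 6 (-0.114, limma adjusted p = 0.247). Inpp5d, a lipid phosphatase, differed by 0.067 in the same comparison (limma adjusted p = 0.565).

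**Figure D3:**
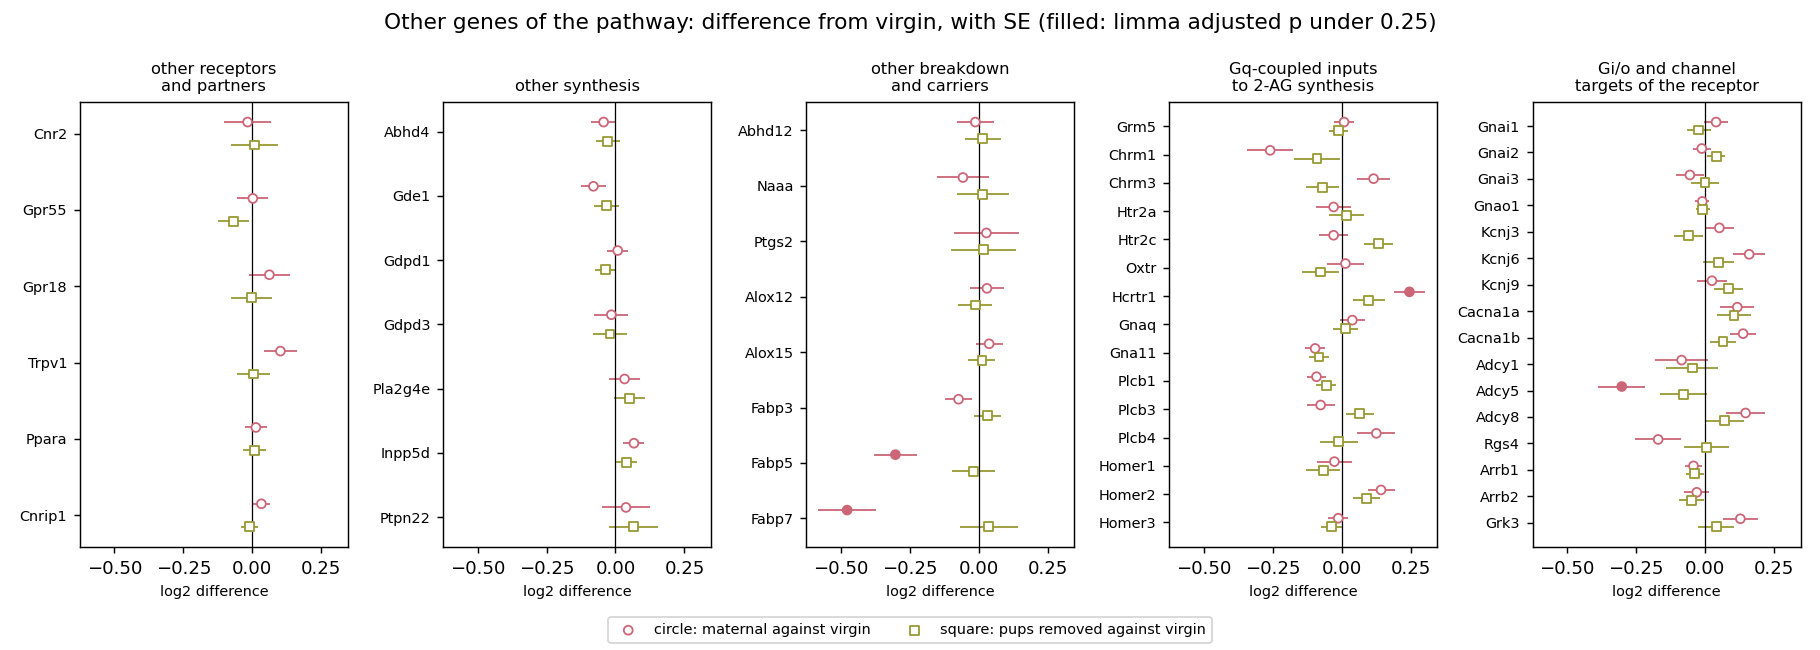
Log2 difference from virgin mice (horizontal axis) with SE for genes around the 7 members, by role; circles are maternal and squares pups removed mice, and filled symbols passed the limma test at an adjusted p under 0.25. Fabp5, Fabp7 and Adcy5 fell and Hcrtr1 rose in maternal mice, and no pups removed symbol is filled.

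Genes that feed 2-AG synthesis through Gq-coupled receptors were taken from a list of 16, of which 15 were measured. Between maternal and virgin mice 1 rose, 0 fell and 14 did not pass, beside 0.832% of all probesets called higher and 0.813% called lower. The median difference was -0.013, and 0.012 over all probesets. In each of the other 2 comparisons 0 of 15 were called. The gene that rose was Hcrtr1, the orexin receptor 1. Its log2 signal ran from 7.62 to 7.88, 7.92 to 8.10 and 7.69 to 8.03 in virgin, maternal and pups removed mice. All maternal arrays were above all virgin arrays, and pups removed arrays overlapped both. Hcrtr1 rose by 0.245 in maternal against virgin mice (SE 0.057, limma adjusted p = 0.147), and the call was lost without maternal replicate 4, 5 or 6, with limma adjusted p between 0.251 and 0.285. The maternal minus pups removed difference was 0.147 (limma adjusted p = 0.485), and the pups removed minus virgin difference was 0.098 (limma adjusted p = 0.711).

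Targets of the receptor, namely Gi/o proteins, potassium and calcium channels, adenylyl cyclases and regulators, came from a list of 17, of which 16 were measured. Between maternal and virgin mice 0 rose, 1 fell and 15 did not pass, beside the same 0.832% and 0.813% of all probesets. The median difference was 0.007, and 0.012 over all probesets. In each of the other 2 comparisons 0 were called. The gene that fell was Adcy5, the adenylyl cyclase that predominates in striatum. Its mean log2 signal was 10.88 ± 0.10 in virgin and 10.57 ± 0.13 in maternal mice (SD, n = 6), with ranges of 10.72 to 11.00 and 10.38 to 10.74. Adcy5 fell by 0.302 (SE 0.085, limma adjusted p = 0.212). This call did not hold without virgin replicate 2, 3, 4 or 5 and without maternal replicate 2, 4, 5 or 6, with limma adjusted p between 0.286 and 0.386. The maternal minus pups removed difference of Adcy5 was -0.223 (limma adjusted p = 0.471), which passed without pups removed replicate 4 (limma adjusted p = 0.2). That of pups removed against virgin mice was -0.078 (limma adjusted p = 0.868).

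Adcy5 is also 1 of 18 markers of striatal medium spiny neurons, a neighboring cell type that carries Cnr1. Of these, 16 were measured and all 16 were lower in mean in maternal than in virgin mice, 5 of them called, beside 0.813% of all probesets called lower, with a median of -0.466. They were lower in mean in maternal than in pups removed mice as well, 16 of 16, with a median of -0.328 and 0 called. An unadjusted p under 0.05 was reached by 10 of these 16, beside 8.96% of all probesets. In pups removed against virgin mice 16 of 16 were lower in mean, with a median of -0.135 and 0 called. The level of that list, as its mean log2 signal per array, ran from 10.107 to 10.338, 9.392 to 9.980 and 9.591 to 10.467 in virgin, maternal and pups removed mice. Among them Bcl11b, a transcription factor of these neurons, fell by 0.313 (limma adjusted p = 0.128). Pde1b, a phosphodiesterase, fell by 0.445 (limma adjusted p = 0.190), and Rxrg, a retinoid receptor, fell by 0.487 (limma adjusted p = 0.191). The list was high in signal in all groups and lowest in maternal mice. Over the 18 arrays the list mean and Cnr1 had r = 0.226 (permutation p = 0.368, adjusted p = 0.480 over the 7 members) and rho = 0.282 (permutation p = 0.257, adjusted p = 0.419). Without the 2 arrays farthest from the median r was 0.242, and with group means removed it was -0.0618. Within groups of 6 r was 0.860, -0.208 and -0.100 in virgin, maternal and pups removed mice. The part of the striatal list in the values of Cnr1 and Adcy5 was not tested.

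**Figure D4:**
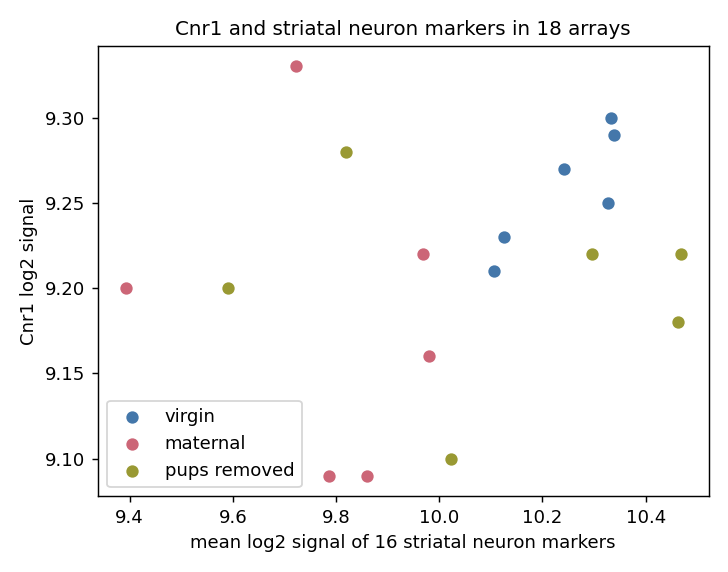
Cnr1 log2 signal (vertical axis) against the mean log2 signal of 16 striatal medium spiny neuron markers (horizontal axis), 1 point per array, coloured by group. Maternal arrays lie to the left of all virgin arrays on the horizontal axis, while Cnr1 overlaps between the groups.

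Markers of the CCK basket interneurons and of GABA neurons, whose terminals carry CB1, were also read. The mean log2 signal of 6 CCK basket interneuron markers was 7.794 ± 0.153, 7.762 ± 0.155 and 7.781 ± 0.153 in virgin, maternal and pups removed mice. That of 3 GABA neuron markers was 11.612 ± 0.048, 11.598 ± 0.039 and 11.577 ± 0.064. Of the CCK list, Slc17a8, Htr3a, Vip and Npas1 had means below the median of all values, 7.66, in each group. The list is therefore a weak reading of these cells. No gene of either list was called in any comparison. Among 8 microglia markers, where Daglb is prominent, Aif1 and P2ry12 were called lower in maternal than in virgin mice, with differences of -0.145 and -0.178 (limma adjusted p = 0.179 and 0.114), beside 0.813% of all probesets called lower. Of the 8, 3 were higher in mean, among them Tmem119 at 0.075 (limma adjusted p = 0.465), with 6 of 6 maternal arrays above the virgin mean. These markers were named after their values were seen, and their part in the Daglb values was not tested.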

How the data were processed

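LS RNA of 18 mice, 1 array each, was analysed. The authors deposited log2 signal per probeset, made by PLIER summarization and normalization with GC bin background correction in Affymetrix Power Tools 1.12.0, rounded to 2 decimals; the log base was inferred from the range of the values. Genes were named from the platform annotation, in which 1621 probesets name several genes and 12147 none. Arrays have no read depth, so the number of arrays limits the precision.

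A model with 3 groups was fitted to the deposited values of all 35557 probesets with limma 3.58.1 in R 4.3.3 (no filter, prior degrees of freedom 2.62). Benjamini-Hochberg adjustment was made within each comparison, and called means an adjusted p under 0.25, as in the methods. Exact permutation tests used all 924 splits, and correlations 100000 resamples. The fit was tested on simulated data. The members and gene lists were chosen with earlier results of these data known. Named are the members, every called gene of the pathway lists, up to 3 with the smallest p in a list with none called, the 3 genes most like each member, and up to 3 genes of a cell type list beside a result. Fabp3, marker genes of glia and genes named in the closing observations were chosen after their values were seen. Alternatives were quantile normalization, median centring, a mean of at least 7, probesets of 1 gene, an intensity trend, array weights, fits of 2 groups, a replicate block and each array left out.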

Additional observations from a re-analysis of the deposited data

Results flagged for a closer look

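The 51 groups of 6 arrays examined covered the 7 members and the pathway genes named by the rule above. An array stood apart where its gap to its nearest neighbor was above 0.625 of the group's range, the 95% critical value of Dixon's test. This held in 3 groups. Chance gives about 1 such group in 20. Maternal replicate 2 had a Napepld log2 signal of 8.86, with the nearest other maternal array at 8.99 and a gap of 0.929 of the range. Maternal replicate 1 had an Abhd6 log2 signal of 10.17, with the nearest at 10.03 and a gap of 0.7 of the range. Pups removed replicate 3 had an Inpp5d log2 signal of 7.98, with the nearest at 7.90 and a gap of 0.667 of the range.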

How the results depend on the processing

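The count of members called was 0 under all 27 settings, with a largest absolute log2 difference of 0.112 and a smallest limma adjusted p of 0.334. Of 21 differences of the members, 11 kept their direction throughout and 9 changed sign under some setting, each without a call. The remaining 1, Abhd6 between maternal and virgin mice, was 0 and ran from -0.028 to 0.020 with an array left out. Under quantile normalization the maternal minus pups removed difference became 0.008 for Cnr1 and 0.002 for Dagla. With each array centred on its median, the maternal minus virgin difference became -0.010 for Dagla and -0.005 for Faah, and for Dagla that of pups removed against virgin mice became -0.007 and that of both postpartum groups -0.008. With each array left out in turn, maternal minus virgin ran from -0.015 to 0.027 for Dagla, -0.029 to 0.035 for Daglb and -0.012 to 0.028 for Faah. Maternal minus pups removed ran from -0.038 to 0.004 for Dagla and -0.007 to 0.023 for Daglb. Pups removed minus virgin ran from -0.033 to 0.031 for Daglb, -0.066 to 0.008 for Napepld, -0.064 to 0.022 for Fabp5 and -0.011 to 0.117 for Fabp7. For both postpartum groups against virgin the ranges were -0.004 to 0.028 for Dagla, -0.031 to 0.033 for Daglb and -0.027 to 0.003 for Faah.

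The counts over all probesets moved more. Between maternal and virgin mice, 585 became 1130 above a minimum mean of 7 and ran from 10 to 1639 with an array left out. Between maternal and pups removed mice, 11 became 42 under quantile normalization, 7 with median centring, 204 at a mean of at least 7, 309 among probesets of 1 gene, 70 with an intensity trend, 783 with array weights and 5 to 719 with an array left out. Between pups removed and virgin mice, 74 became 33 in a fit of the 2 groups, 7 among probesets of 1 gene, 42 with array weights and 18 to 266 with an array left out. Where fewer probesets are tested, the adjustment itself differs, and the cause of the other changes was not tested. Fabp7 between maternal and pups removed mice passed under quantile normalization, a mean of at least 7, probesets of 1 gene, an intensity trend and array weights, with limma adjusted p of 0.229, 0.138, 0.142, 0.187 and 0.132.

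By the methods, RNA was prepared in matched sets with 1 sample of each group, but the labels do not say that the replicate numbers mark these sets. Same-numbered arrays of different groups had deviations correlating at -0.248 to 0.095 over 18 pairs, 0 above 0.1, and 1 of 18 arrays correlated best with its own number. With the number as a replicate block, 356 probesets were called between maternal and virgin mice, 9 between maternal and pups removed mice and 70 between pups removed and virgin mice. With that block the Adcy5 limma adjusted p was 0.25, no longer past the threshold, and no member changed its call.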

Other observations

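Among the genes around the 7 members, 6 had an unadjusted p under 0.05 between maternal and virgin mice without passing the adjusted threshold. With the called Hcrtr1 and Adcy5 counted in, 2 of 15 Gq-coupled inputs were higher and 3 lower at that p, and 2 of 16 receptor targets higher and 1 lower, beside 10.4% of all probesets in either direction. Chrm1, the muscarinic M1 receptor and a Gq-coupled input, had a mean log2 signal of 9.26 ± 0.10 in virgin and 9.0 ± 0.15 in maternal mice (SD, n = 6), a difference of -0.260 (SE 0.083, limma adjusted p = 0.273), with 6 of 6 maternal arrays below the virgin mean. Gna11, a Gq family alpha subunit, and Plcb1, a phospholipase C that Gq activates, differed by -0.097 (SE 0.036, limma adjusted p = 0.346) and -0.092 (limma adjusted p = 0.373), each also with 6 of 6 maternal arrays below the virgin mean. Homer2, a postsynaptic scaffold protein that binds group I metabotropic glutamate receptors, differed by 0.142 (SE 0.049, limma adjusted p = 0.305), with 6 of 6 maternal arrays above the virgin mean. Homer2 has 2 probesets of its own, and only the brighter was read. Cacna1b, the N-type calcium channel that CB1 inhibits at terminals, differed by 0.138 (SE 0.046, limma adjusted p = 0.296), and Kcnj6, an inwardly rectifying potassium channel opened by Gi/o receptors, by 0.160 (SE 0.057, limma adjusted p = 0.328), each with 6 of 6 maternal arrays above the virgin mean. In pups removed against virgin mice the differences were -0.090 for Chrm1, -0.083 for Gna11, -0.057 for Plcb1, 0.088 for Homer2, 0.065 for Cacna1b and 0.048 for Kcnj6. In the maternal minus pups removed comparison none of the 6 was called, with limma adjusted p from 0.572 for Chrm1 to 0.944 for Gna11. There 2 of 15 Gq-coupled inputs were higher and 2 lower at an unadjusted p under 0.05, beside 8.96% of all probesets, and 0 were called. They were Chrm3 at 0.185, Hcrtr1 at 0.147, Htr2c at -0.162 and Plcb3 at -0.142. Chrm3, another muscarinic receptor, thus went the other way from Chrm1, and its maternal minus virgin difference was 0.115 (limma adjusted p = 0.531).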
